A study of Mus musculus with 6 samples.

Results

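Of the 40411 cell barcodes in the deposited single-cell matrix, 759 carried at least 5% of their unique molecular identifiers (UMIs, the tags that count single RNA molecules) on the 13 genes of the mitochondrial genome and had more than 200 detected genes. These 759, called high-mt barcodes here, were chosen by that measured share, and they are the barcodes that the mitochondrial filter in the study's methods removes. Another 39642 barcodes had more than 200 genes and less than 5% of their UMIs on mitochondrial genes, and served as the comparison (low-mt barcodes). The cells came from 6 female SCID mice, which lack T and B lymphocytes, implanted in the brain at 8 weeks of age (the age label reads 6 to 8 weeks) with 50000 cells of U87, an established human glioma line. In 3 mice the U87 cells stably expressed IL-33 and the tissue was taken at 3 weeks, and in 3 control mice they carried the empty pcDNA 3.1 vector and the tissue was taken at 6 weeks. Cells from the tumour-bearing hemisphere were enriched on a Percoll gradient and sorted by flow cytometry for CD45, the surface protein of leukocytes, before droplet capture with the 10x Genomics 3′ chemistry. The matrix lists mouse genes only, so RNA of the human tumour cells has no row in it.

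The mitochondrial genome encodes core subunits of the respiratory chain (complexes I, III and IV) and of ATP synthase (complex V), which work together with many more subunits encoded in the nucleus, made in the cytosol and imported. The share of RNA that is mitochondrial differs between cell types, and an upper limit on it is a routine filter in droplet data. Microglia, the resident macrophages of the brain, make up most cells that a CD45 sort of brain tissue recovers, whereas the choroid plexus, the epithelium that secretes cerebrospinal fluid, is not of leukocyte origin and is known for abundant mitochondria.

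Each barcode ends in a number from 1 to 6 that marks its library, but the labels do not say which number is which mouse, and no other source was used to assign them. The paper's supplement lists cell numbers for each library, but these were not used to match libraries to suffixes. The matrix was therefore treated as 1 pooled sample, and IL-33 and control mice were not compared. High-mt and low-mt barcodes can be set side by side within each suffix, but no test was run, and values by suffix show spread only. That spread includes any difference between IL-33 and control mice. The suffixes also share barcodes. Of all barcodes, 14722 (36.4%) carried the same 16 bases as a barcode of another suffix, and across the 23745 such pairs the mitochondrial shares of the paired barcodes had a Pearson r of 0.880, a description across barcodes and not across samples. Of the 353 pairs with at least 1 high-mt barcode, both barcodes were high-mt in 205 (58.1%). The 759 high-mt barcodes hold 652 different 16-base sequences.

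Shared barcodes were shallow, with a median of 929 UMIs against 3137 UMIs in those found under 1 suffix. Below 1000 UMIs, 90.1% of the low-mt barcodes were shared, against 31.1% of the high-mt barcodes. At 2000 UMIs or more, 6.55% of the low-mt barcodes and 10.1% of the high-mt barcodes were. After weighting to the UMI counts of the high-mt barcodes, 63.3% of the comparison consisted of shared barcodes, so results are given below with and without them. Leaving the shared barcodes out left 565 high-mt and 25117 low-mt barcodes. Among barcodes under 1000 UMIs, the high-mt share was 3.73% in all and 21.2% among those that were not shared, whereas at 2000 UMIs or more the shares were 0.595% and 0.573%.

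High-mt barcodes made up 1.88% of all barcodes with more than 200 genes (exact binomial 95% interval 1.75 to 2.02%; this and all later intervals cover counting error only). By suffix the share was 1.68% in suffix 1, 0.950% in suffix 2, 1.56% in suffix 3, 2.35% in suffix 4, 1.79% in suffix 5 and 3.39% in suffix 6, on 133, 97, 45, 150, 120 and 214 high-mt barcodes. Suffix 6 stood highest and suffix 2 lowest, and their intervals did not overlap. Most of these barcodes lay close to the limit, with a median mitochondrial share of 6.74% against 1.31% in low-mt barcodes. In all, 635 had from 5% to under 10%, 105 from 10% to under 20%, and 19 had 20% or more, up to 60.5%. The barcode just inside the limit had 5.004% and the one just outside 4.995%, and 169 barcodes fell in the step of 0.5 percentage points above the limit where 250 fell in the step below it.

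The high-mt barcodes were shallow. Their median was 1055 UMIs (range 500 to 8890) and 505 genes (204 to 2665), against 2472 UMIs and 1116.5 genes in low-mt barcodes. The median UMI count was 914, 1001, 883, 1364.5, 1099 and 1190.5 in suffixes 1 to 6, and in each suffix it lay under that of the low-mt barcodes, of which the lowest was 1556 in suffix 5. Only 2 high-mt barcodes exceeded the 2500 genes that the study's methods set as an upper limit. When each barcode was thinned to 400 UMIs of non-mitochondrial genes, high-mt barcodes still held slightly fewer genes, with a median of 254 (751 barcodes deep enough) against 263, and the order was the same in every suffix.

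**Figure D1:**
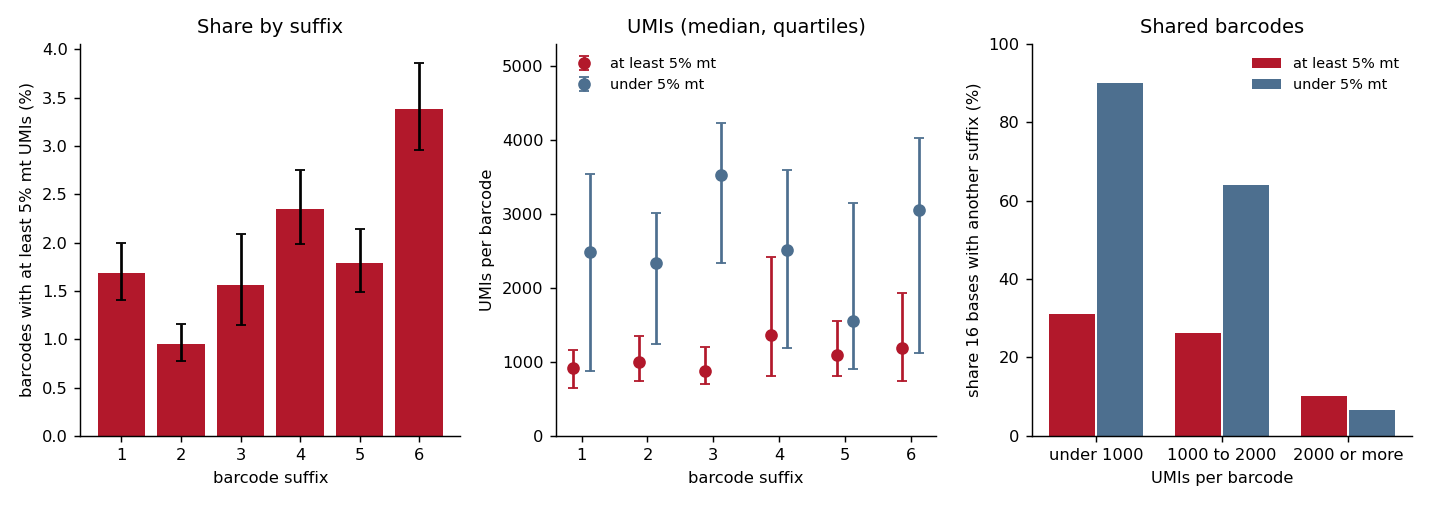
Left, the share of barcodes with at least 5% mitochondrial UMIs in each barcode suffix, with exact binomial 95% intervals. Middle, UMIs per barcode (points medians, bars quartiles) for barcodes at or above and under 5%. Right, the share of barcodes whose 16 bases also occur under another suffix, by UMI class. The share runs from 0.950% to 3.39%, every high-mt median lies under its low-mt median, and low-mt barcodes under 1000 UMIs are mostly shared (90.1%).

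The marker genes named for this class were detected in nearly all of it, mt-Atp6 and mt-Co3 in 100% of the 759 barcodes, mt-Nd1 in 99.9% and mt-Co1 in 98.9%, which follows from the rule. What the rule left free is how the mitochondrial UMIs divide between the genes. The 5 genes mt-Atp6 (ATP synthase), mt-Co3 and mt-Co1 (complex IV), mt-Nd1 (complex I) and mt-Cytb (complex III) held 23.2%, 19.7%, 11.1%, 14.0% and 11.6% of the 81296 mitochondrial UMIs. In low-mt barcodes weighted to the same suffixes and UMI counts they held 22.3%, 21.4%, 10.0%, 13.3% and 12.2%. The make-up was thus close to that of the other barcodes, with small shifts that recurred over suffixes: mt-Co1 took a larger share in 6 of 6 suffixes, and mt-Co3 and mt-Cytb a smaller one in 6 of 6. Without the shared barcodes mt-Co1 held 11.1% against 10.5%, and mt-Co3 19.8% against 20.8%. Relative to the UMIs of all genes, levels stood between 3.99 (mt-Nd2) and 4.90 (mt-Nd6) times those of low-mt barcodes, a range that the rule sets on average but not gene by gene.

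Neighbouring mitochondrial genes overlap, and a read there cannot be assigned to 1 gene. The annotated end of mt-Atp8 shares 43 bases with the start of mt-Atp6 (mm10, chrM:7927-7969, plus strand), and that of mt-Nd4l shares 7 with mt-Nd4 (chrM:10167-10173, plus strand). The last 60 bases of each upstream gene are shown from the GENCODE transcripts, with the bases shared with the downstream gene in capitals. Little of the annotated 3′ end of mt-Atp8 is its own.
mt-Atp8: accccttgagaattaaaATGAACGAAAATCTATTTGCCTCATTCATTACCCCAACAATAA
mt-Nd4l: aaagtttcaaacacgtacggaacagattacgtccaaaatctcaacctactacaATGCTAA
In these barcodes mt-Atp8 held 0.0984% of the mitochondrial UMIs (80 UMIs) and mt-Nd4l 0.234% (190 UMIs). Reads in the shared bases make both values uncertain, but whether the overlaps set these low counts was not tested. The only protein gene on the minus strand, mt-Nd6 (complex I), held 22 UMIs, or 0.0271% against 0.0250%.

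**Figure D2:**
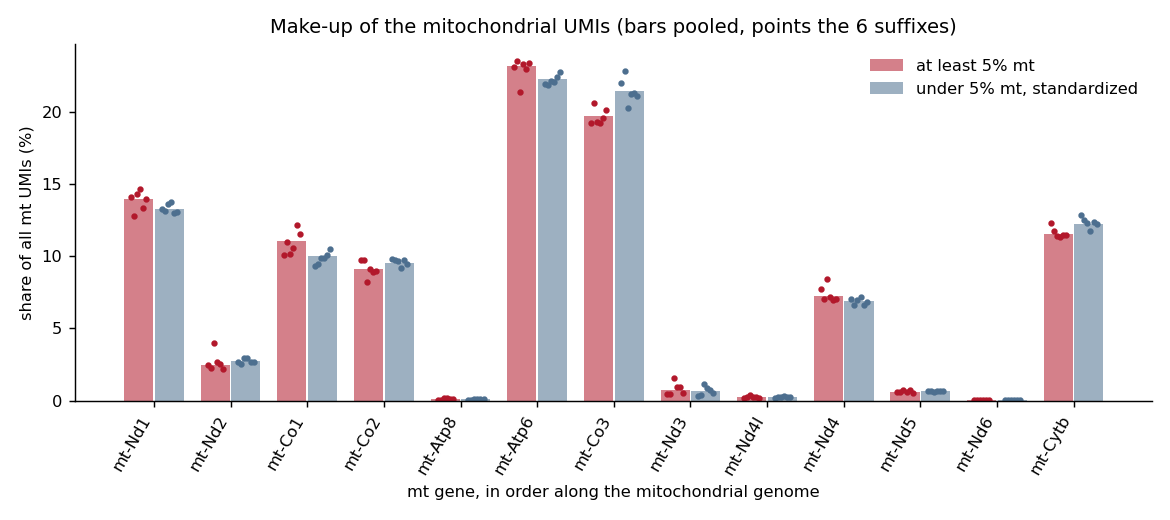
Share of all mitochondrial UMIs held by each of the 13 genes in high-mt barcodes and in low-mt barcodes weighted to the same suffixes and UMI counts. Bars give the pooled share and points the 6 suffixes. The profiles nearly coincide, with mt-Co3 lower (19.7% against 21.4%) and mt-Co1 higher (11.1% against 10.0%) in the high-mt barcodes.

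To describe which cells these were, each barcode was marked for a cell type when it held at least 2 different markers of that type and at least 3 UMIs on its list. Most high-mt barcodes carried microglial markers. These markers (Tmem119, P2ry12, Csf1r and others) were found on 665 of 759 (87.6%, 85.1 to 89.9%), against 98.0% of the weighted low-mt barcodes. The same mark was on 34.0% of all choroid-marked barcodes, so that it does not by itself show a microglial cell. Choroid plexus markers (Enpp2, Clu, Sostdc1, Folr1 and others, with Ttr left out) were found on 62 (8.17%, 6.32 to 10.3%) against 0.880%. Without the shared barcodes the same shares were 85.5% against 91.1% for microglia and 9.20% against 4.04% for the choroid plexus. Neither mark was found on 44 barcodes (median 688.5 UMIs), whose median mitochondrial share was 12.9%.

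Seen from the other side, 18.3% (14.3 to 22.8%) of all 339 choroid-marked barcodes were high-mt, and their median mitochondrial share was 2.96%. Choroid-marked high-mt barcodes numbered 19, 10, 6, 8, 8 and 11 in suffixes 1 to 6 and were thus present in each. Of the 62, 10 shared their 16 bases with another suffix. Ptprc, the gene of CD45, was scarce on them, with 10 UMIs in all (94.0 CPM, the counts scaled to a total of 1000000) against 414 CPM in microglia-marked high-mt barcodes. The 44 high-mt barcodes with neither mark had Ptprc at 1331 CPM (35 UMIs), with a Ptprc UMI on 54.5% of them.

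NK cell markers (Gzma, Nkg7, Ccl5 and others) were found on 11 high-mt barcodes (1.45%, 0.726 to 2.58%) against 1.15%, and granulocyte markers (S100a8, S100a9, Csf3r and others) on 9 (1.19%, 0.544 to 2.24%) against 0.589%. Both orders turned without the shared barcodes, to 1.59% against 2.60% for NK cells and 1.59% against 2.38% for granulocytes. NK markers were also carried by 0.835% of microglia-marked and 1.44% of choroid-marked barcodes, types that should lack them (median 2483 and 1488 UMIs in the low-mt ones), and both rates lie inside the interval of the 1.45%. Of the 11 NK-marked high-mt barcodes 5 also carried microglial markers and none choroid plexus markers. For granulocytes those shares were 0.702% and 0.288%. Of the 9 granulocyte-marked barcodes 5 were in suffix 4 and none in suffixes 1 to 3, and without suffix 4 the share was 0.657% against 0.530%. The 12 NK genes summed to 438 CPM in high-mt barcodes against 580 CPM, most of it Ccl5, with Klra8 at 0, and the 12 granulocyte genes to 522 CPM against 653 CPM, with Csf3r, which microglia also express, as the most abundant and Ltf, Retnlg and Ly6g at 0. For NK cells suffixes 1 and 5 went the other way (855 against 78.5 and 103 against 74.4 CPM). For granulocytes suffix 4 did (1173 against 673 CPM), and the high-mt sums of the other suffixes were 194 to 371 CPM. Without the shared barcodes the sums were 495 against 1140.1 CPM for NK cells and 604 against 1491 CPM for granulocytes.

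Macrophage markers (Mrc1, Pf4, Stab1 and others) were found on 7 barcodes (0.922% against 0.603%). The 11 listed macrophage genes summed to 204 CPM against 152 CPM, with 54.0% of the 204 CPM from Stab1, and suffixes 1 and 2 went the other way. Cd163 and Lyve1, also on that list, were at 0. Monocyte markers were found on 23 (3.03%, 1.93 to 4.51%, against 1.33%; without the shared barcodes 3.89% against 2.42%), and dendritic cell markers on 20 (2.64% against 3.03%). Astrocyte markers were found on 22, of which 18 were also choroid-marked, so that their list did not separate the types here. Endothelial, ependymal, oligodendrocyte and lymphocyte markers were found on 2, 3, 4 and 11 barcodes. None of the 759 carried neuronal, erythroid, mast cell or mural cell markers, and the exact binomial interval of that count of 0 reaches up to 0.485%.

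**Figure D3:**
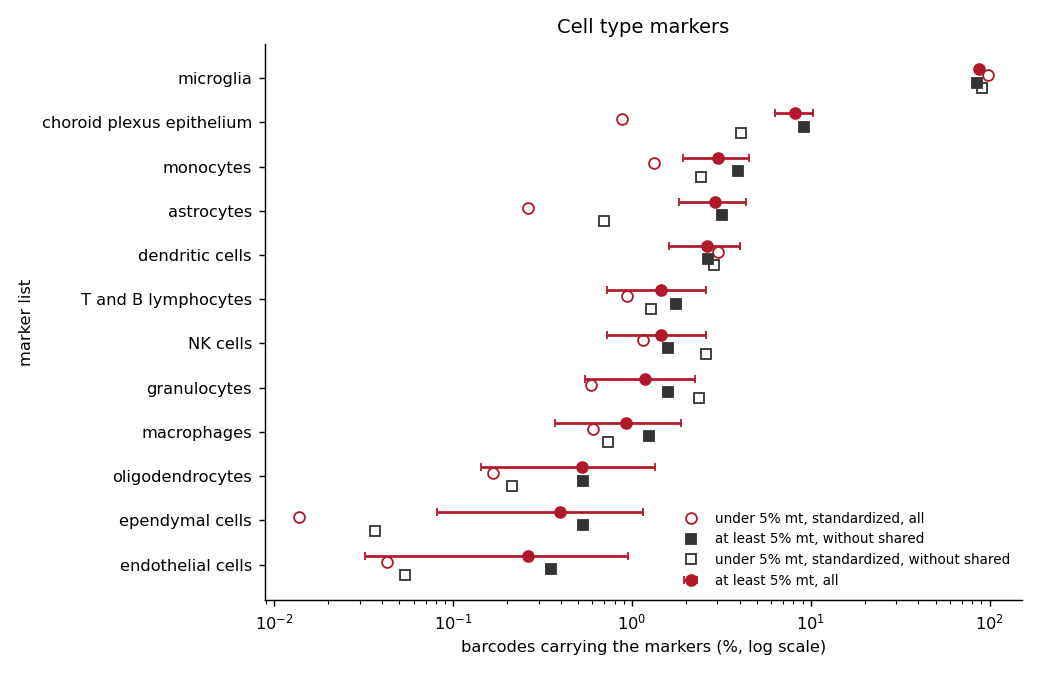
Share of barcodes that carry the markers of each cell type, on a log axis, for high-mt barcodes (filled; red with exact binomial 95% intervals) and weighted low-mt barcodes (open), in all barcodes (red circles) and without shared barcodes (black squares). Choroid plexus markers stand apart (8.17% against 0.880%), whereas the order for NK cells and granulocytes depends on the shared barcodes. Types with no marked high-mt barcode are not drawn.

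Non-mitochondrial genes were compared next, as CPM computed without mitochondrial counts, so that the rule itself does not lower every other gene. High-mt barcodes (1046319 such UMIs) were set against low-mt barcodes weighted to the same suffixes and UMI counts. Of 2734 genes with a mean of at least 50 CPM, 73 (2.67%) were at least 2-fold higher and 71 (2.60%) at least 2-fold lower, and 292 (10.7%) were higher and 600 (21.9%) lower in every suffix. The median log2 ratio over all genes was -0.08. Without suffix 4 the lower genes numbered 115. Without the choroid-marked barcodes the counts were 43 higher (1.55%) and 53 lower (1.90%) of 2783 genes, with 257 (9.23%) higher and 426 (15.3%) lower in every suffix. Without the shared barcodes they were 56 (2.04%) and 45 (1.64%) of 2740, with 220 (8.03%) and 426 (15.5%) in every suffix, and without either kind 28 (1.00%) and 30 (1.08%) of 2790, with 189 (6.77%) and 261 (9.35%).

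The genes furthest above the comparison were those of the choroid plexus. Ttr (transthyretin, the carrier of thyroid hormone that this epithelium secretes) stood at 43758 CPM (43358 to 44161) against 2369 CPM, a log2 ratio of 4.21. By suffix Ttr was 81613, 47984, 114223, 21831, 51304 and 31148 CPM in high-mt barcodes, against 5299, 3172, 2017, 949, 2339 and 2084 CPM in the weighted low-mt barcodes. The ranges did not overlap, and suffix 3 was highest. Enpp2 (autotaxin, which makes lysophosphatidic acid) had 1627 CPM against 109 CPM, Sostdc1 (a secreted BMP antagonist) 365 against 18.1, and Folr1 (the folate receptor) 119 against 6.10. Of the 12 listed choroid genes 8 reached a mean of 50 CPM, but several, such as Folr1, did so only through their level in the high-mt barcodes, so that their number and median are no measure of the list. Fxyd1, Igfbp2, Clu, 1500015O10Rik, Mt3, Ptgds, Spint2 and Chchd10, the other genes ranked with them, had log2 ratios between 3.39 and 4.36. At least 92.7% of the UMIs of each lay in the 62 choroid-marked barcodes. Igfbp2, Clu, 1500015O10Rik and Chchd10 are among the genes that set the mark, so for them this follows in part from it. Fxyd1, Mt3, Ptgds and Spint2 are not. Without the shared barcodes the log2 ratio was 2.75 for Ttr, 2.51 for Enpp2, 2.83 for Sostdc1 and 2.59 for Folr1. For the other genes ranked with them it then lay between 2.26 (Chchd10) and 2.79 (Spint2).

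Choroid-marked barcodes also differed among themselves. The 62 high-mt ones had a median of 984.5 UMIs and the 277 low-mt ones 1488. Ttr took 40.2% of the UMIs of the former and 23.4% of those of the latter. Malat1, a long non-coding RNA held in the nucleus, stood at 5498 CPM against 22872 CPM, and the 18 immediate early genes summed to 6090 CPM (5630 to 6578) against 28603 CPM (28213 to 28998). Fosb had 0 UMIs in the high-mt and 119 in the low-mt ones. Nuclear-encoded respiratory subunits stood at 45555 against 41594 CPM, and cytosolic ribosomal proteins at 51383 against 53397 CPM. Ttr weighs on these totals, and with Ttr left out of them (a choice made after seeing the values) the ratios of high-mt to low-mt were 1.46 for respiratory subunits, 1.28 for ribosomal proteins, 0.284 for immediate early genes, 0.320 for Malat1 and 0.446 for microglial genes. Microglial genes summed to 4380 against 13080 CPM, so the low-mt choroid-marked barcodes held more microglial RNA; the part of this in the other differences was not tested.

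When the same ranking was repeated without choroid-marked barcodes, a choice made after seeing these values, the leading genes were of another kind. Cox6a2, the heart and muscle isoform of a complex IV subunit, was the highest of those on 1 side in every suffix, at 165 CPM (140 to 193) against 28.0 CPM. Its values by suffix were 92.7, 30.6, 28.3, 242, 147 and 192 CPM against 8.58, 8.42, 10.7, 48.3, 13.03 and 32.4 CPM, so that suffixes 4 and 6 were high in both kinds of barcode and suffix 5 in the high-mt barcodes. Spp1 (osteopontin, a secreted glycoprotein of activated phagocytes) had 3182 CPM against 898 CPM, and 1419 against 579 CPM when the shared barcodes were left out as well. Fn1 (fibronectin), Cd72 (an inhibitory lectin receptor), Cxcl10 (an interferon-induced chemokine), Gas6 (the ligand of the phagocytic receptors Axl and Mertk), Tspo (a protein of the outer mitochondrial membrane) and Bst2 (tetherin, an interferon-induced antiviral protein) had log2 ratios of 1.68, 1.61, 1.59, 1.39, 1.32 and 1.31. These 6 stayed above 1 without the shared barcodes as well, at 1.91, 1.32, 1.47, 1.05, 1.25 and 1.49. Gm42418, a non-coding gene annotated over ribosomal RNA repeats, had 1.70 and 1.97. Tap1, H2-Q7, Cd52, Crlf2 and Naaa were also among the highest 15, with log2 ratios of 1.15 to 1.30. Without the shared barcodes as well, Tap1 had 1.35, whereas H2-Q7, Cd52, Crlf2 and Naaa were under 2-fold at 0.87, 0.81, 0.87 and 0.77.

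At the other end, Ddit4, an inhibitor of mTORC1 induced by glucocorticoids and stress, had 11 UMIs in all high-mt barcodes (10.5 CPM, 5.25 to 18.8) against 196 CPM, a log2 ratio of -4.22. By suffix it had 14.4, 27.4, 0, 7.49, 6.87 and 8.86 CPM against 362, 340, 217, 86.7, 282 and 127 CPM, with no overlap between the groups. Without the shared barcodes the ratio was -1.80. Pik3ip1 (an inhibitor of PI3 kinase) and Fkbp5 (a glucocorticoid-induced co-chaperone) had log2 ratios of -2.66 and -1.95, which shrank to -0.88 and -0.59 without the shared barcodes. All 3 genes then lie under the 50 CPM minimum (Ddit4 4.003 against 15.98, Pik3ip1 12.0 against 26.4 and Fkbp5 20.02 against 29.1 CPM without choroid-marked and shared barcodes), as does Sult1a1, a sulfotransferase (-2.37 in all barcodes; 10.7 against 34.6 CPM in that set). Sox4 (a developmental transcription factor), Commd8 and Gm3448 had -1.74, -1.54 and -1.56 in all and -1.87, -1.47 and -1.41 without the shared barcodes. Also among the lowest 15 were Fosb, Fos, Ogfrl1, Il16, Rgs1, Tagap and Akap8l, between -2.01 and -1.54. Without the shared barcodes Fosb, Fos, Il16 and Akap8l had -1.64, -1.52, -1.20 and -1.11. Ogfrl1, Rgs1 and Tagap were then under 2-fold, at -0.93, -0.83 and -0.96. Akap8l was at -0.99 when choroid-marked barcodes were left out as well.

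**Figure D4:**
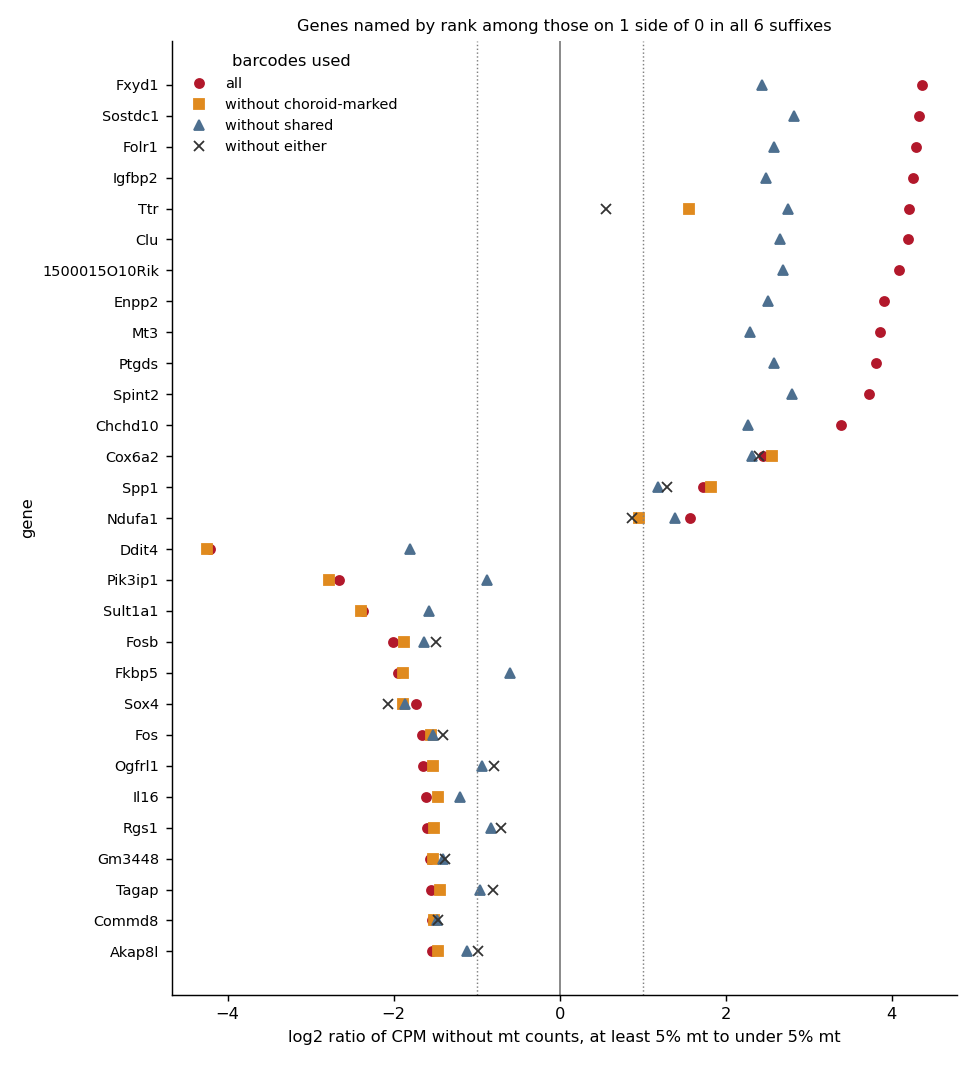
Log2 ratio of CPM without mitochondrial counts, high-mt to weighted low-mt barcodes, for genes among the 15 highest and 15 lowest of those on the same side of 0 in all 6 suffixes. Symbols give the ratio in all barcodes, without choroid-marked, without shared and without either kind; points with a mean under 50 CPM are not drawn in the sets without choroid-marked barcodes, whereas the points without shared barcodes are drawn at any level. Dotted lines mark 2-fold. Cox6a2, Sox4, Fos and Commd8 barely move, whereas the points of Ddit4, Pik3ip1 and Fkbp5 without shared barcodes, which rest on few UMIs, lie nearer 0.

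Immediate early genes, the transcription factors and phosphatases that cells induce within minutes of a stimulus such as tissue dissociation, were lower as a group. All 18 listed genes reached 50 CPM, 7 were at least 2-fold lower, 17 were lower in every suffix and none was at least 2-fold higher, with a median log2 ratio of -0.93. The shares over all genes were 2.60% at least 2-fold lower and 21.9% lower in every suffix. Fos stood at 3118 CPM (3012 to 3226) against 9855 CPM. By suffix it was 3404, 4679, 3385, 2997, 3083 and 2568 CPM against 11773, 12709, 9831, 8738, 10020 and 8956 CPM, without overlap. Jun (5330 against 10363 CPM), Jund (669 against 1728), Btg2 (2678 against 6001) and the phosphatase Dusp1 (1311 against 3768) followed the same order. The summed level of the list was 30273 CPM against 60742 CPM. Without choroid-marked and shared barcodes the list median was -0.76, with 5 genes at least 2-fold lower and 15 lower in every suffix.

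The mitochondrial share was graded rather than split in 2 classes, so the gene lists were also followed over bands of it, in barcodes of 500 to under 2000 UMIs. Without shared and choroid-marked barcodes, immediate early genes summed to 69796 CPM under 1%, 57304 CPM from 4 to under 5%, 52859 CPM (51587 to 54155) from 5 to under 6%, 36442 CPM (34985 to 37944) from 8 to under 10% and 18639 CPM (16342 to 21170) at 15% or more. The level thus already stepped down below the 5% limit and went on doing so above it, with the last band resting on 26 barcodes. Fos went from 10940 to 2123 CPM between the first and last band. In the same bands the median UMI count went from 1457 to 561, and its part in the trend was not tested.

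Nuclear-retained RNAs summed lower in high-mt barcodes, at 39504 against 54374 CPM, but did not follow a single direction over the bands. Their median log2 ratio was -0.49 over 3 genes. Malat1 stood at 36954 CPM (36587 to 37325) against 52063 CPM over all high-mt barcodes, lower in every suffix, and Neat1 at 457 against 735 CPM. Without choroid-marked barcodes Malat1 was lower in 5 of 6 suffixes, and the list of nuclear-retained RNAs summed to 79166 against 61616 CPM in suffix 3, the opposite order. Without shared barcodes as well, suffix 3 had 82853 against 95361 CPM and the sum was lower in every suffix (list median -0.44). Over the bands, without shared and choroid-marked barcodes, Malat1 was 76376 CPM from 5 to under 6%, 39523 CPM (38004 to 41086) from 8 to under 10% and 98624 CPM (93240 to 104237) at 15% or more. Barcodes just over the limit therefore resembled those just under it (70835 CPM), those at 8 to under 10% were low, and the few above 15% were the highest of all bands.

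Microglial identity genes were lower too, but by less and unevenly. Of the 12 listed genes none passed 2-fold, 5 were lower in every suffix (21.9% of all genes were) and the median log2 ratio was -0.52. P2ry12, the purinergic receptor of resting microglia, stood at 1616 CPM (1540 to 1695) against 2931 CPM. Its values by suffix were 1831, 1508, 2185, 1476, 1298 and 1731 CPM against 2925, 3107, 2773, 2964, 2552 and 3034 CPM, without overlap. Tmem119, the fractalkine receptor Cx3cr1 and the selectin ligand Selplg had log2 ratios of -0.59, -0.56 and -0.71. Csf1r, the growth factor receptor on which microglia depend, was level at 3396 against 3293 CPM, and Fcrls was 0.34 higher on the log2 scale. By suffix the median ran from -0.46 in suffix 6 to -0.14 in suffix 3. Without choroid-marked and shared barcodes the median was -0.41, only 2 genes were lower in every suffix, and the direction turned in suffixes 2 and 3 (medians of 0.03 and 0.21). Over the bands of that set the 12 genes summed to 36501 CPM from 4 to under 5%, 38087 CPM from 5 to under 6% and 15494 CPM (13405 to 17815) at 15% or more.

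Nuclear-encoded partners of the mitochondrial proteins were higher. Of 76 respiratory subunits that reached 50 CPM, 20 were at least 2-fold higher and none at least 2-fold lower, 46 were higher and none lower in every suffix, and the median log2 ratio was 0.64. For all genes the shares were 2.67% at least 2-fold higher and 10.7% higher in every suffix. Complex IV subunits had the highest median (0.94, 11 genes), followed by complex V (0.78, 16 genes) and complex I (0.61, 35 genes). Complex III had 0.52 (9 genes) and complex II 0.16 (4 genes). Complex II has no mitochondrially encoded subunit, but whether the order follows this was not tested. These medians include the choroid-marked barcodes. Ndufa1 (complex I) stood at 175 against 58.8 CPM, Uqcr11 (complex III) at 332 against 123 CPM and Cox6a1 (complex IV) at 469 against 204 CPM. Much of this lay with the choroid-marked barcodes, which held 44.3% of the Ndufa1 UMIs. Without them the list median was 0.39 with 1 gene at least 2-fold higher. Without shared barcodes too it was 0.32 with none, and 8 were higher and 2 lower in every suffix (6.77% and 9.35% of all genes in that set). By suffix the list summed to 9363, 9176, 6277, 15510, 11314 and 14465 CPM in that last set, against 7091, 8332, 7017, 11173, 9955 and 10871 CPM, with suffix 3 in the opposite order to the rest. Over its bands the sum for nuclear-encoded respiratory complexes was 8830 CPM from 4 to under 5%, 7640 CPM from 5 to under 6% and 10991 CPM from 8 to under 10%, with no steady order.

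Other mitochondrial genes of the nucleus differed less. Of 25 mitochondrial ribosomal proteins at 50 CPM or more none passed 2-fold (median log2 ratio 0.19), and of 16 genes of mitochondrial DNA expression, import and carriers, 1 did, Tomm7 (a small subunit of the import receptor complex; 152 against 65.7 CPM), with a median of 0.28. Tomm7 was at 0.37 without choroid-marked and shared barcodes.

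Cytosolic ribosomal proteins were higher without a difference between the subunits, with median log2 ratios of 0.57 over 33 small and 0.59 over 48 large subunit genes. Of the 81 genes 2 passed 2-fold, among them Rpl41 (2080 against 1035 CPM), and 21 of the 81 were higher in every suffix. Over all genes 2.67% were at least 2-fold higher and 10.7% higher in every suffix, so the 2 past 2-fold are no excess. By suffix the list summed to 61955, 68865, 38224, 94889, 75421 and 91925 CPM against 41773, 41040, 46622, 61761, 54307 and 59256 CPM. Suffix 3 again went against the other suffixes. The median without choroid-marked and shared barcodes was 0.52.

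**Figure D5:**
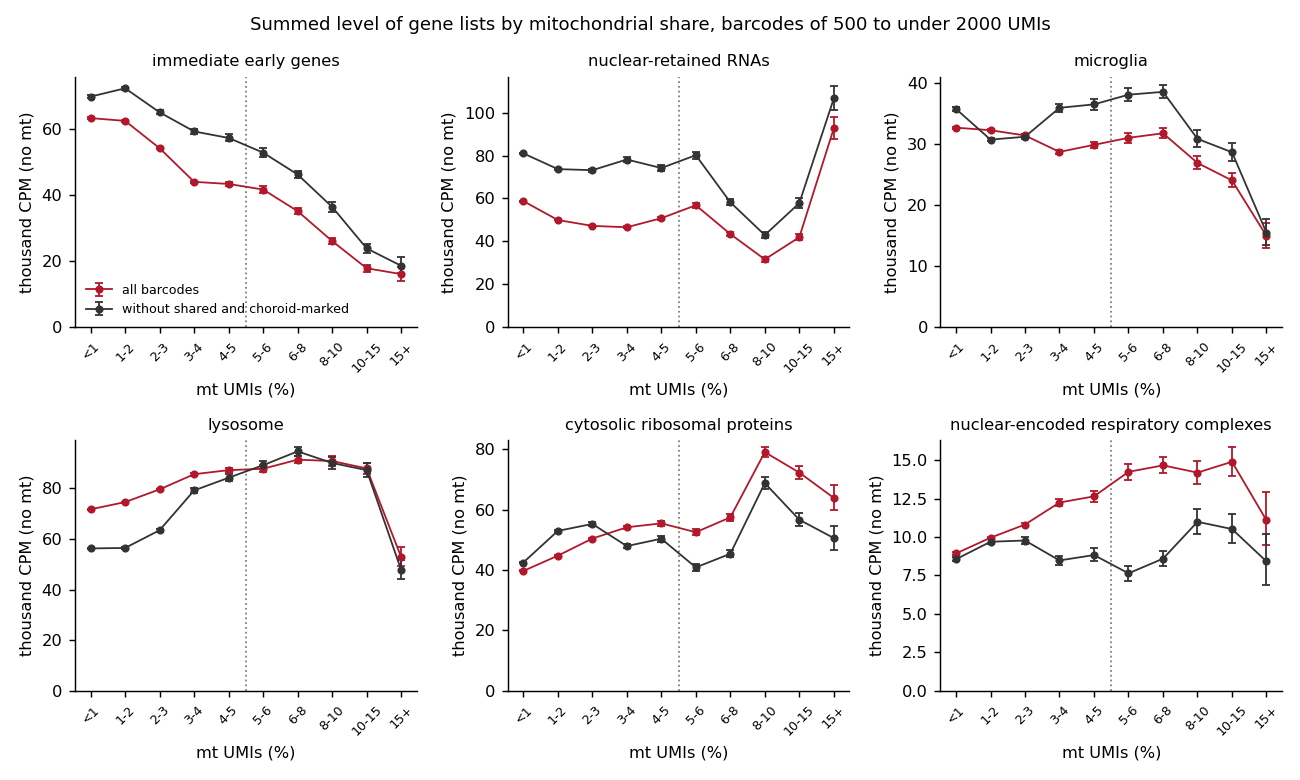
Summed CPM (without mitochondrial counts, axes in units of 1000 CPM) of 6 gene lists in barcodes of 500 to under 2000 UMIs, by band of mitochondrial share. Red points are all barcodes, black points those neither shared nor choroid-marked; error bars are exact Poisson 95% intervals and the dotted line marks the 5% limit. Immediate early genes step down across all bands of the black series from 1% on, Malat1-dominated nuclear-retained RNAs dip at 8 to 10% and are highest above 15%, and nuclear-encoded respiratory complexes range from 7640 to 10991 CPM in the black series.

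Genes of lysosomes, the degradative equipment of phagocytes, were slightly higher. Of 22 lysosomal genes none passed 2-fold, 9 were higher and 1 lower in every suffix (10.7% and 21.9% of all genes), and the median log2 ratio was 0.21. Without choroid-marked and shared barcodes the median was 0.39 and 13 were higher in every suffix (6.77% of all genes there). Cd63, a tetraspanin of late endosomes, passed 2-fold in that set (log2 ratio 1.19) and over all barcodes stood at 2001 against 1084 CPM. The protease genes Ctsd (17101 against 13788 CPM) and Ctsl (1691 against 1182 CPM) were higher as well. Apoe, the lipid carrier, stood at 32629 CPM against 24117 CPM, a log2 ratio of 0.44 that was 1.19 without choroid-marked and shared barcodes. Of the 10 measured complement and lipid handling genes, Cst7 (cystatin F) was the only one above 2-fold in all barcodes (188 against 60.3 CPM), none was higher in every suffix over all barcodes, and Cst3 was lower in every suffix (42020 against 50944 CPM). Their median log2 ratio was 0.36 over all barcodes, above 0 in every suffix but suffix 3 (-0.15). Without choroid-marked barcodes it was 0.46, with 5 higher and none lower in every suffix and a median of 0.18 in suffix 3, and without shared barcodes it was 0.46 over 8 genes, with 4 higher and 1 lower.

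Inflammatory genes were mixed. Of 14 chemokine and cytokine genes 2 were at least 2-fold higher, Spp1 and Cxcl10. Ccl12 was higher in every suffix (3527 against 2157 CPM), whereas Ccl3 was lower in every suffix (1562 against 2396 CPM) but level without choroid-marked and shared barcodes (log2 ratio -0.004). Of the 6 class II antigen presentation genes none was at least 2-fold higher or higher in every suffix. Their median log2 ratio was 0.83, and suffixes 3 and 4 went the other way (771 against 845 and 1135 against 1192 CPM summed). The most abundant, Cd74, stood at 796 CPM (743 to 852) against 401 CPM. The summed level of the MHC class II list, without choroid-marked and shared barcodes, was 732 CPM under 1% mitochondrial UMIs, 1800 CPM from 3 to under 4%, 1044 CPM from 4 to under 5%, 1105 CPM from 5 to under 6%, 3174 CPM from 8 to under 10%, 7477 CPM (6726 to 8290) from 10 to under 15% and 2989 CPM at 15% or more, so that the bands had no steady order and the highest was at 10 to under 15%. The genes listed for monocytes summed to between 92.2 and 208 CPM in the 5 bands under 5%, and to 194 CPM from 5 to under 6%, 588 CPM from 8 to under 10%, 1305 CPM (1003 to 1670) from 10 to under 15% and 2123 CPM (1399 to 3090) at 15% or more. Ccr2, the receptor by which monocytes enter tissue, had 125 against 49.4 CPM over all high-mt barcodes and was higher in 4 of 6 suffixes.

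Glycolytic enzymes were modestly higher, with a median log2 ratio of 0.53 over 11 genes and none past 2-fold. In every suffix 6 were higher (10.7% of all genes were), among them Gapdh (470 against 299 CPM) and Eno1 (246 against 143 CPM). The corresponding median without choroid-marked and shared barcodes was 0.31. Genes of the integrated stress response were lower, with Ddit4 past 2-fold, all 4 measured genes lower in every suffix (21.9% of all genes were) and a median of -0.69. Without choroid-marked and shared barcodes the median was -0.46 over the 3 genes that reach 50 CPM, of which 2 were lower in every suffix. Ddit4 falls under the minimum in that set, at 4.003 against 15.98 CPM. Of 8 apoptosis genes none passed 2-fold, and their median of -0.19 was near that of all genes. Heat shock proteins had a median of -0.23 over 11 genes, with 1 at least 2-fold lower, and 13 cytoskeleton genes a median of 0.05, with none past 2-fold. Of the 4 measured genes of the interferon response, which cells switch on after sensing type I interferon, 1 was at least 2-fold higher (median 0.79), and their list of 12 summed to 899 CPM against 543 CPM. The suffixes were split, with medians of -0.26, -0.50, -1.31, 1.47, 0.29 and 1.03 in suffixes 1 to 6 and a sum of 279 against 372 CPM in suffix 3.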

How the data were processed

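The authors made the UMI counts with Cell Ranger 3.1 (3.1.0 in the file header) against mm10, aggregating 6 libraries (3 IL-33, 3 pcDNA) into the deposited matrix of counts (31053 genes). In Seurat 3.1.5 they required more than 200 genes, no more than 2500 genes and a mitochondrial share below 5%. Here the counts were used as deposited, with Python 3.11.15, numpy 2.4.6 and scipy 1.17.1, without doublet calling or clustering. High-mt barcodes were compared with low-mt barcodes weighted to them within suffix and steps of 0.5 in log2 UMIs. CPM left out mitochondrial counts. Genes needed a mean of at least 50 CPM, and a ratio of 2 or 0.5 counted as a difference. No label ties a suffix to a mouse and no other source was used for this, so the matrix was treated as 1 sample, groups were not compared and no test was run. Named genes were those of fixed lists, the mitochondrial genes, and the 15 highest and 15 lowest ratios on the same side of 1 in every suffix with at least 20 high-mt barcodes. The members and lists were chosen with earlier results of these data known. The weighting was checked on simulated data. Intervals are exact Poisson (CPM) or Clopper-Pearson (shares). Of the gene identifiers, 99.6% matched GENCODE M21, which gave coordinates and sequences. Some genes that these rules select are not reported here.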

Additional observations from a re-analysis of the deposited data

How the results depend on the processing

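Of 162 values recomputed under alternatives, 134 moved by less than the spread between suffixes (gene counts by less than 1.5 times). Another 22 moved further, and 6 reversed their order against the low-mt barcodes, 4 for NK and 2 for granulocyte markers. The spread was wide for some results, with a standard deviation of 1.31 beside the 1.19% of granulocyte markers, so a small move says little there. Apart from reversals, only the high-mt value was judged and not its comparison. With a limit of 10%, high-mt barcodes were 0.307% of all, with a median of 752 UMIs, 357 genes higher and 348 lower, NK markers on 3.23% and choroid markers on 2.42%. With at least 1000 UMIs the median was 1578 UMIs, and NK markers were on 1.23% of high-mt against 1.99% of low-mt barcodes, the opposite order. Against low-mt barcodes of 2% to under 5%, 29 genes were higher and 28 lower, the microglial median was -0.21, and NK markers were on 1.45% against 1.59%. A minimum of 20 CPM gave 142 higher and 185 lower genes of 5473, against 73 and 71 of 2734. Without weights the microglial median was -0.67. With 1 suffix left out at a time (leave-one-out), the lower genes numbered 63 to 115, with a microglial median of -0.57 to -0.36, with both upper ends reached without suffix 4. The alternatives without choroid-marked or shared barcodes were chosen after seeing the data. Without choroid-marked barcodes 43 genes were higher, the microglial median was -0.39 and that of respiratory subunits 0.39. Without shared barcodes 45 genes were lower, and NK and granulocyte markers were each on 1.59%, under the low-mt shares. Without either kind 28 genes were higher and 30 lower, the respiratory median was 0.32, and NK and granulocyte markers were each on 1.75%, against 2.75% and 2.57%. The matrix columns carry no replicate number of the labels, and a comparison paired within suffix, though possible, was not run. Depth limits the rarer genes and marks: the high-mt barcodes hold 1046319 non-mitochondrial UMIs in all.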
